A study of Homo sapiens with 8 samples.

Results

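Tubulins are the proteins from which microtubules are built, and human cells make them from several genes whose products are called isotypes. Described here are 10 tubulin genes, chosen by name from the 16082 genes of the deposited count table: the alpha tubulins TUBA1A, TUBA1B, TUBA1C and TUBA4A, the beta tubulins TUBB, TUBB2A, TUBB3, TUBB4B and TUBB6, and the gamma tubulin TUBG1. All 10 were found in the table and all 10 passed the filter on low counts. The cells were KYSE150, an established line of human esophageal squamous cell carcinoma, sequenced as poly(A) RNA in 4 samples whose genotype was ShHNRNPC (a short hairpin RNA against HNRNPC, a nuclear RNA-binding protein) and in 4 samples whose genotype was Control. The labels give treatment as none for both groups and state neither a time after hairpin delivery nor what the control cells carried.

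Alpha and beta tubulin form the heterodimer that polymerises into the microtubule wall, and gamma tubulin sits in the ring complex from which new microtubules grow. Isotypes of the same class differ mostly in their acidic C-terminal tails, which carry many of the tubulin modifications. Cells also control tubulin mRNA by a feedback loop called autoregulation: when free heterodimer is plentiful, the factor TTC5 recognises the first residues of nascent alpha and beta tubulin on the ribosome and, through SCAPER, recruits the CCR4-NOT deadenylase to the mRNA being translated. In squamous epithelial cells TUBB, TUBB4B, TUBA1B and TUBA1C are general isotypes, whereas TUBB3 is best known from neurons and from carcinomas.

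The first 30 coding bases are shown because autoregulation reads the protein encoded there. They were taken from GENCODE release 29 transcripts (GRCh38), are written 5′ to 3′, and have the first 4 codons in capitals. TUBA1A and TUBA1C have the same 30 bases as TUBA1B.
TUBA1B: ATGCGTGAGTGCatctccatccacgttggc
TUBA4A: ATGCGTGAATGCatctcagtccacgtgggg
TUBB: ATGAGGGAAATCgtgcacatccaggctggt
TUBB4B: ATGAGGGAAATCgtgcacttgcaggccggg
TUBB3: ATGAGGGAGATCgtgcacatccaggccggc
TUBB6: ATGAGGGAGATCgtgcacatccaggcgggc
TUBG1: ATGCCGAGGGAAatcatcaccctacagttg
TUBE1: ATGACCCAGTCGgtggtcgtacaggtcggc
TUBB and TUBB4B share their first 4 codons, and so do TUBB3 and TUBB6. TUBG1, and TUBE1 of the epsilon class, begin with other codons.

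Library totals ranged from 28323403 to 34913500 counts, and 13855 to 14223 genes were detected per library. HNRNPC was at 33.9 ± 1.80 CPM (read counts scaled to a common library size with TMM factors; SD, n = 4) in shHNRNPC cells and 587 ± 12.5 CPM in control cells. Of 12001 genes tested, 77.3% were called at an adjusted p below 0.05 by edgeR's quasi-likelihood test with Benjamini-Hochberg adjustment, 38.7% higher and 38.6% lower, and the median log2 fold change was -0.01. Whether each sample was its own culture is not in the labels, and the spread behind the p-values could then be technical only. All 10 squamous epithelial markers listed were detected, with a summed level of 2833 to 2889 CPM in shHNRNPC libraries and 1949 to 1983 CPM in control libraries, led by KRT5, CDH1 and SFN (1123 ± 13.7, 508 ± 3.51 and 351 ± 6.54 CPM in shHNRNPC cells, and 565 ± 6.60, 314 ± 7.13 and 328 ± 3.97 CPM in control cells). KRT6A and KRT14 were low, at 1.96 ± 0.759 and 4.89 ± 0.482 CPM in shHNRNPC cells and 6.04 ± 0.752 and 8.35 ± 0.661 CPM in control cells. Of these 10 markers 5 were higher, with the largest log2 fold change for KRT17 (1.70). The 5 lower were KRT6A (-1.62), KRT14 (-0.77), DSG3 (-0.56), TP63 (-0.45) and PERP (-0.24). The part of these markers in the tubulin changes was not tested.

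All 4 alpha tubulins and 4 of the 5 beta tubulins rose after HNRNPC knockdown, by 1.33-fold to 1.49-fold, and TUBG1 rose by 1.22-fold. TUBB6 stood outside this rise, at 96.6% of the control level. Across the 10 genes 9 were called higher and 1 lower, against 38.7% and 38.6% of all genes tested, and their median log2 fold change was 0.51 against -0.01 for all genes tested. The 10 genes were chosen with earlier results of these data known. Of 6 other tubulin genes tested, 1 was called higher and 3 lower, so these counts hold for the 10 genes and not for all tubulins. No member's libraries overlapped between the groups, which was so for 70.8% of all genes tested: 9 lay wholly above (35.4% of all genes) and 1 wholly below (35.4%). In RNA from whole cultures, a different mix of cells and a different amount of RNA per cell cannot be told apart.

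**Figure D1:**
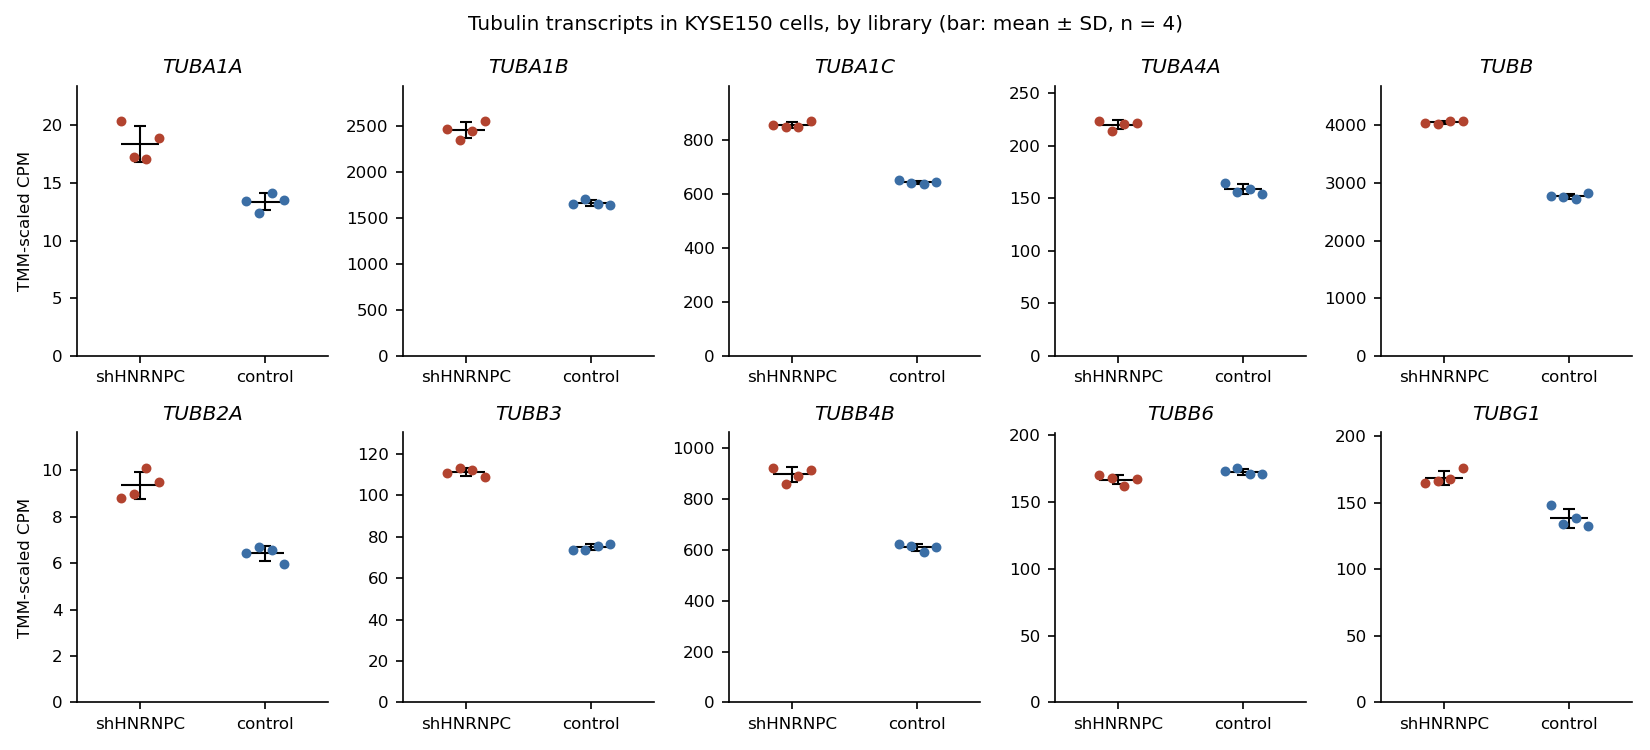
TMM-scaled CPM of each of the 10 tubulin genes in every library, shHNRNPC left and control right, with bars for the mean ± SD of 4 libraries; each vertical axis starts at 0 and has its own range. The 4 shHNRNPC libraries lie above the 4 control libraries for 9 genes, and for TUBB6 they lie just below them (162 to 170 CPM against 171 to 176 CPM).

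TUBA1B, the major alpha isotype of dividing cells, had 2467, 2341, 2449 and 2550 CPM in the shHNRNPC libraries, against 1653, 1709, 1646 and 1637 CPM in the control libraries. Every shHNRNPC library was above every control library, with a log2 fold change of 0.56 (SE 0.0195, edgeR adjusted p = 4.74e-28). TUBA1C, a second broadly expressed alpha isotype, had 854, 849, 849 and 869 CPM in shHNRNPC cells, against 650, 639, 638 and 645 CPM in control cells. The groups were again apart, with a log2 fold change of 0.41 (SE 0.0178, edgeR adjusted p = 1.02e-30), the smallest among the alpha and beta isotypes that rose.

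TUBA4A had 223, 214, 221 and 222 CPM in shHNRNPC cells, against 165, 156, 159 and 154 CPM in control cells (log2 fold change 0.47, SE 0.0238, edgeR adjusted p = 1.92e-27). TUBA4A differs from the other alpha tubulins here in lacking the encoded C-terminal tyrosine that they carry. TUBA1A, the alpha isotype of developing neurons, was scarce in this epithelial line, at 20.3, 17.2, 17.1 and 18.9 CPM in shHNRNPC cells, against 13.4, 12.4, 14.1 and 13.5 CPM in control cells. Its libraries did not overlap either (log2 fold change 0.46, SE 0.0705, edgeR adjusted p = 3.91e-08).

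TUBB, the class I beta tubulin, was the most abundant tubulin transcript by count. It had 4034, 4027, 4071 and 4071 CPM in shHNRNPC cells, against 2774, 2749, 2729 and 2832 CPM in control cells. The gap between the groups was far larger than the spread within either (log2 fold change 0.55, SE 0.0165, edgeR adjusted p = 3.14e-39). TUBB4B, the class IVb isotype found in most cells and in cilia, had 923, 860, 889 and 913 CPM in shHNRNPC cells, against 622, 615, 591 and 613 CPM in control cells. Its log2 fold change of 0.55 (SE 0.0197, edgeR adjusted p = 2.92e-33) was equal to that of TUBB to 2 decimals.

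TUBB3, the class III isotype, had 111, 113, 112 and 109 CPM in shHNRNPC cells, against 73.7, 73.7, 75.7 and 76.5 CPM in control cells. It had the largest log2 fold change of the 10 genes, 0.57 (SE 0.0293, edgeR adjusted p = 5.74e-27). TUBA1B was within that error, at 0.56 (SE 0.0195), so this rank is not resolved. Over the alternative analyses TUBB3 ranged from 0.55 to 0.59 and TUBA1B from 0.53 to 0.60. Of the 8 listed neuronal markers in the table, 7 stayed below 1 CPM in every library, and the 8 summed to 0.536 to 0.966 CPM in shHNRNPC libraries and 1.27 to 1.93 CPM in control libraries. SYP, RBFOX3 and ELAVL3 led that list at 0.587 ± 0.216, 0.0546 ± 0.0414 and 0.0416 ± 0.0423 CPM in shHNRNPC cells and 1.10 ± 0.210, 0.327 ± 0.102 and 0.0614 ± 0.0445 CPM in control cells (SD, n = 4). Other genes also known from neurons were expressed and moved in both directions. MAP2, a neuronal microtubule-associated protein named here after its values were seen, was lower, at 28.9 ± 1.39 CPM in shHNRNPC cells and 44.8 ± 3.14 CPM in control cells. ELAVL2, of the same family as ELAVL3, was higher, at 59.8 ± 1.35 CPM in shHNRNPC cells and 14.7 ± 0.774 CPM in control cells. The stathmin STMN3 was also higher, at 8.47 ± 0.183 CPM in shHNRNPC cells and 4.13 ± 0.695 CPM in control cells. The part of these genes in the TUBB3 change was not tested.

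TUBB2A, a class II isotype known mainly from brain, had 8.81, 8.98, 10.1 and 9.49 CPM in shHNRNPC cells, against 6.44, 6.69, 6.56 and 5.97 CPM in control cells. The groups did not overlap, and the log2 fold change was 0.54 with a wider error than for the abundant isotypes (SE 0.0954, edgeR adjusted p = 7.90e-07). TUBB6, the class V isotype, which disrupts microtubules when overexpressed in hamster cells, had 170, 168, 162 and 167 CPM in shHNRNPC cells, against 173, 176, 171 and 171 CPM in control cells. The shHNRNPC libraries were all slightly lower, the log2 fold change was -0.05 (SE 0.0237), and the edgeR adjusted p of 0.0475 lay just under the threshold. That call was lost in 11 of 17 alternative analyses, among them those without shHNRNPC replicate 2, 3 or 4 or control replicate 1 or 2 (edgeR adjusted p = 0.0716, 0.218, 0.0887, 0.0760 and 0.129), while the adjusted p ranged from 0.00506 to 0.302 over all alternatives.

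TUBG1, the gamma tubulin that nucleates microtubules in most cells, had 164, 166, 168 and 176 CPM in shHNRNPC cells, against 148, 134, 138 and 132 CPM in control cells. It rose less than the alpha and beta isotypes that rose, with a log2 fold change of 0.29 (SE 0.0287, edgeR adjusted p = 9.74e-12).

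**Figure D2:**
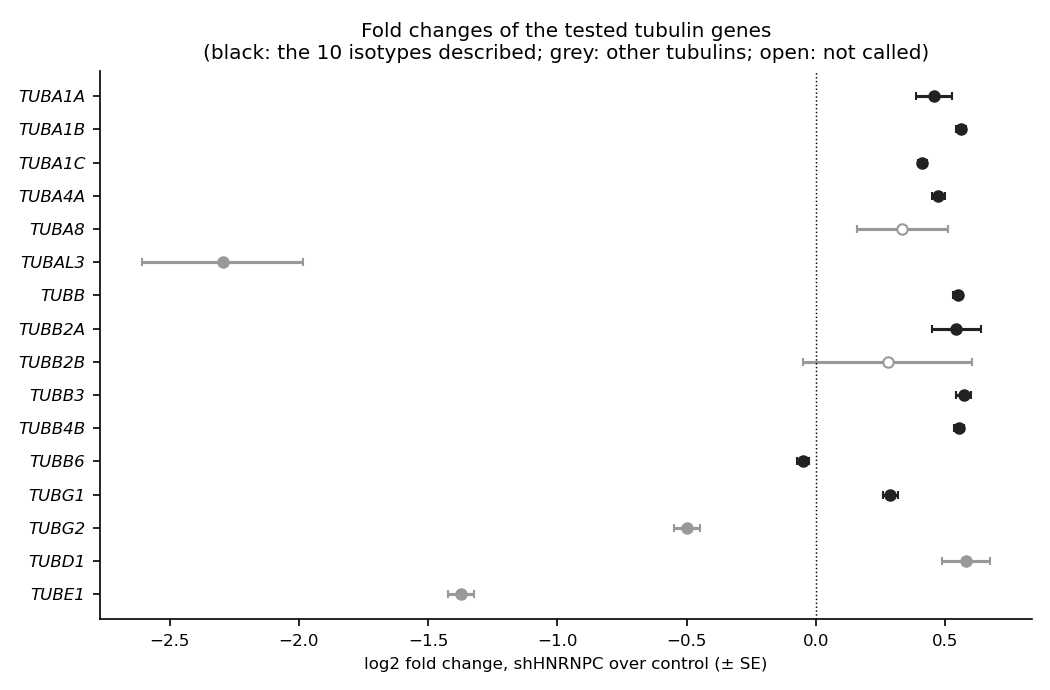
Log2 fold change of shHNRNPC over control with its standard error for the 16 tubulin genes that passed the filter; black points are the 10 genes described, grey points other tubulin genes, and open points genes that were not called. Of the 10 genes described, the alpha and beta isotypes other than TUBB6 lie between 0.41 and 0.57, and among the other tubulin genes TUBE1 (-1.37) and TUBAL3 (-2.29) lie far to the left.

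Of the 10 genes, 8 had log2 fold changes between 0.4 and 0.6, a range chosen after the values were seen, which held 7.29% of all genes tested as called rises; TUBG1 (0.29) and TUBB6 (-0.05) lay outside it. To compare isotypes within libraries, the log2 ratio of each isotype's CPM to that of an abundant partner was taken in 8 pairs, also chosen after the values were seen, and tested by exact two-sided permutation over the 4 shHNRNPC and 4 control libraries (smallest possible p = 0.0286). Relative to TUBB, TUBB6 was at -4.60 ± 0.0364 in shHNRNPC cells and -4.01 ± 0.0339 in control cells (SD, n = 4), a difference of -0.60 (exact p = 0.0286, adjusted over the 8 ratios p = 0.0762). The groups did not overlap for this ratio. The 3 ratios at the smallest possible p all had this adjusted p, which is above 0.05.

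The ratios of TUBB4B, TUBB3 and TUBB2A to TUBB had differences of 0.01, 0.02 and -0.01 (exact two-sided permutation p = 0.771, 0.343 and 0.943) and overlapping groups. Relative to TUBA1B, TUBA1C differed by -0.15 (exact p = 0.0286, adjusted p = 0.0762), with groups that did not overlap. TUBA4A differed by -0.09 (exact p = 0.0571, adjusted p = 0.114) and TUBA1A by -0.10 (exact p = 0.257, adjusted p = 0.411) relative to TUBA1B, and their groups overlapped.

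Levels of different genes were compared after division by the length of 1 representative transcript per gene, as CPM per kilobase. The order and the overlaps below hold for these lengths only. For TUBB and TUBA1B they were 2670 and 1627 bases, against 3359 and 3574 for all annotated exon bases. By count, TUBB was at 4051 CPM and TUBA1B at 2452 CPM in shHNRNPC cells, so the near tie rests on the lengths. TUBB and TUBA1B were the most abundant, at 1517 ± 8.92 and 1507 ± 52.9 CPM per kilobase in shHNRNPC cells and 1038 ± 16.7 and 1021 ± 20.2 in control cells (SD, n = 4), and these neighbours overlapped in both groups. TUBB4B followed at 547 ± 17.1 in shHNRNPC cells and 373 ± 8.0 in control cells, then TUBA1C at 285 ± 3.18 and 214 ± 1.83, all in CPM per kilobase and each clear of its neighbours. In shHNRNPC cells the order went on with TUBG1 (105 ± 3.22), TUBA4A (102 ± 1.85), TUBB6 (80.7 ± 1.66) and TUBB3 (62.9 ± 1.07), where only TUBG1 and TUBA4A overlapped. In control cells it went on with TUBG1 (85.8 ± 4.51), TUBB6 (83.6 ± 1.08), TUBA4A (73.2 ± 2.15) and TUBB3 (42.3 ± 0.799 CPM per kilobase), where only TUBG1 and TUBB6 overlapped. TUBB6 therefore stood below TUBA4A in shHNRNPC cells and above it in control cells. TUBA1A and TUBB2A were lowest, at 9.60 ± 0.806 and 5.86 ± 0.368 CPM per kilobase in shHNRNPC cells and 6.98 ± 0.384 and 4.02 ± 0.197 in control cells.

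**Figure D3:**
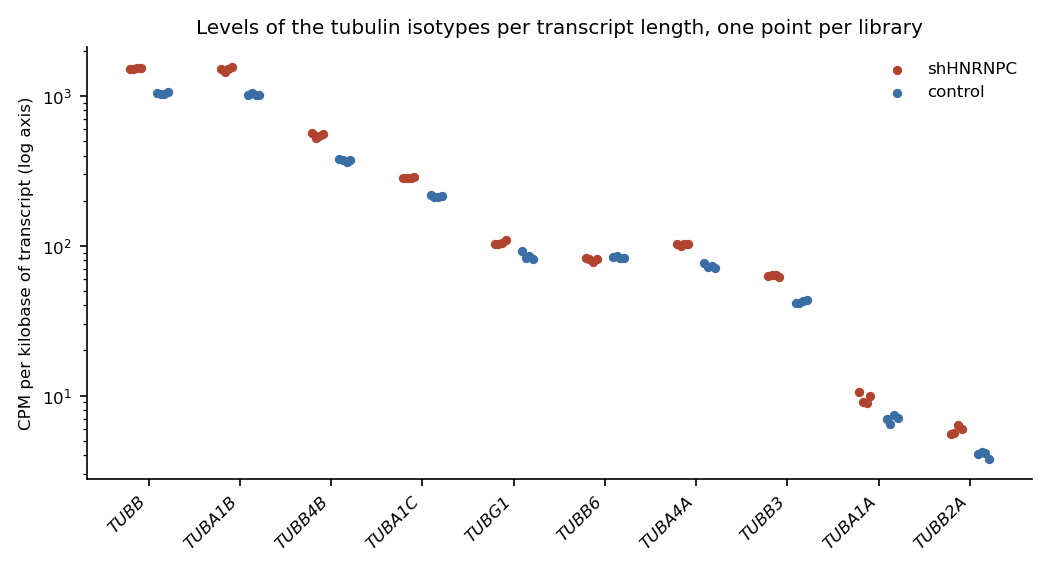
CPM per kilobase of transcript for each tubulin gene in every library, on a log axis, with shHNRNPC points left of control points and genes ordered by their control mean. The 2 leading genes, TUBB and TUBA1B, overlap in both groups and lie far above TUBB2A, and TUBB6 is the gene whose groups lie at nearly the same height.

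The summed alpha isotypes stood at 1903 ± 57.5 CPM per kilobase in shHNRNPC cells and 1315 ± 19.0 in control cells, and the summed beta isotypes at 2214 ± 20.7 and 1541 ± 21.8 (SD, n = 4), with no overlap between groups for either sum. The ratio of alpha to beta was 0.860 ± 0.0185 in shHNRNPC cells and 0.854 ± 0.0186 in control cells, and its groups overlapped. The level of this ratio depends on the transcript lengths used, and the SD does not cover that. Together the 10 genes held 0.888 ± 0.0122% of all counts in shHNRNPC libraries and 0.629 ± 0.00488% in control libraries.

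Within these sums the makeup shifted slightly. TUBB6 made up 3.65 ± 0.0828% of the beta sum in shHNRNPC cells and 5.43 ± 0.104% in control cells, and TUBB made up 68.5 ± 0.504% and 67.4 ± 0.364%. TUBA1C made up 14.98 ± 0.331% of the alpha sum in shHNRNPC cells and 16.3 ± 0.303% in control cells, and TUBA1B made up 79.2 ± 0.396% and 77.6 ± 0.465%. The groups did not overlap for these 4 shares, and they overlapped for the other 5. Shares depend on the lengths used: without division by length the TUBB6 share was lower in shHNRNPC cells by a difference of -1.56 percentage points, against -1.78 with it. With the length of all annotated exon bases, chosen after seeing the data, the difference was -1.18 percentage points.

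**Figure D4:**
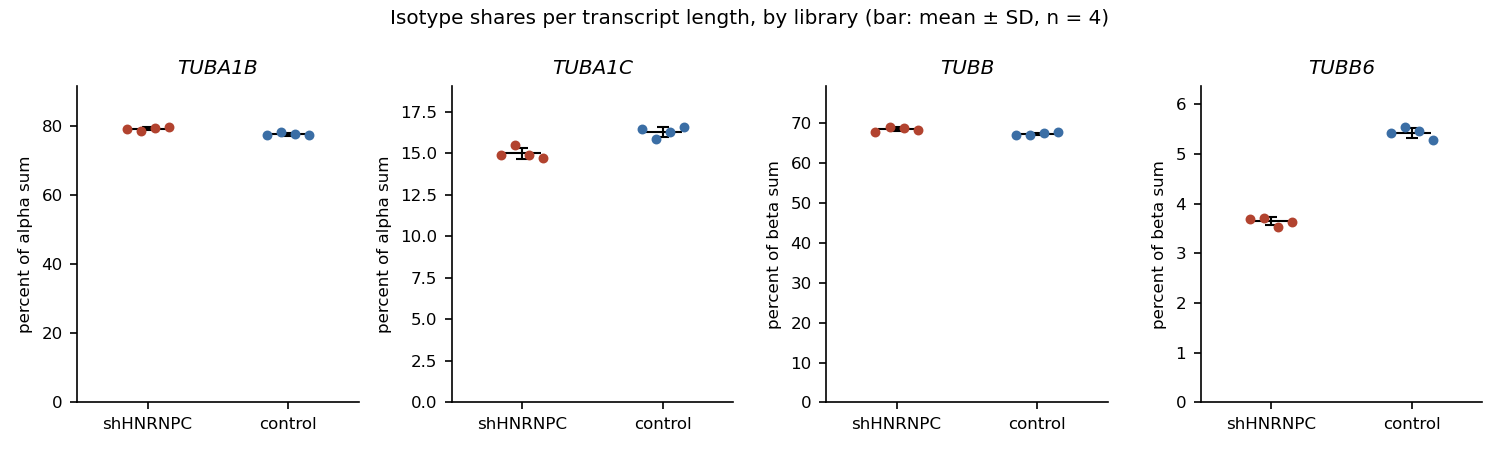
Share of TUBA1B and TUBA1C in the alpha sum and of TUBB and TUBB6 in the beta sum, in percent per transcript length, for every library with the mean ± SD of 4, shHNRNPC left and control right. The TUBB6 share is 3.54% to 3.72% in shHNRNPC libraries and 5.29% to 5.54% in control libraries, the widest relative gap of the 4.

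Tubulin genes are close paralogs, and how the deposited counting treated reads that match more than 1 gene is not given in the sources used here. The coding sequences of TUBA1A and TUBA1B are 97.2% identical and their proteins 99.6% identical, and those of TUBB2A and its chromosome 6 neighbour TUBB2B are 98.2% and 99.6% identical. Windows of 150 bases, the read length, that also occur in a transcript of another gene made up 49.4% of TUBB2A, 19.1% of TUBA1B, 6.91% of TUBA1A and 6.77% of TUBA1C, and 0% of TUBA4A, TUBB4B and TUBB6. For TUBB3 they made up 88.7%, nearly all in a transcript model (AC092143.1) that overlaps it on the same strand of chromosome 16, so TUBB3 counts cannot be separated from that model. With the copies summed before the fit, TUBA1A, TUBA1B and TUBA1C together had a log2 fold change of 0.52 (SE 0.0177, edgeR adjusted p = 3.30e-36). It was 0.52 (SE 0.0922, edgeR adjusted p = 7.64e-07) for TUBB2A with TUBB2B and 0.55 (SE 0.0197, edgeR adjusted p = 2.23e-33) for TUBB4B with TUBB4A. These 3 sums do not depend on how reads were split between the copies, but each mostly repeats its abundant copies. TUBB4A had at most 1 count in any library, and TUBA1A was at 13.4 CPM against 1661 CPM for TUBA1B in control cells. The sums therefore cannot tell whether the scarce copies TUBA1A, TUBB2B and TUBB4A changed by themselves.

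The counting was not stated to use strand, so reads from overlapping genes on the opposite strand cannot be told apart. Of overlaps above 20%, genes on the opposite strand cover 36.6% of the exon bases of TUBA1B, 25% of TUBA1C (partly TUBA1A) and 20.3% of TUBB6 (AFG3L2). For TUBB3 it is 35.8%, by AC092143.1 on the same strand, so counting by strand would not separate it. TUBA1C in turn overlaps 14.3% of the exon bases of TUBA1A, on the opposite strand. In control cells TUBA1C was at 643 CPM and TUBA1A at 13.4 CPM. The part of TUBA1C reads in the TUBA1A counts was not tested. In the RefSeq annotation of GRCh38, TUBA1B (chromosome 12, 49127782 to 49131395), TUBA1A (49184795 to 49189080) and TUBA1C (49227926 to 49274600) lie side by side. TUBB (30720352 to 30725422) and TUBB2A (3153666 to 3157544) lie on chromosome 6, TUBB4B (137241287 to 137243707) on chromosome 9, TUBB3 (89921925 to 89936097) on chromosome 16, TUBB6 (12307669 to 12329826) on chromosome 18, TUBG1 (42609683 to 42615238) on chromosome 17 and TUBA4A (219249710 to 219254740) on chromosome 2. The members that rose are thus spread over 6 chromosomes.

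Promoters are shown for TUBB and TUBB4B, which rose by the same amount, and for TUBB6, which did not rise. Each is 300 bases from RefSeq (GRCh38.p14), 250 before and 50 after the annotated start, 5′ to 3′ on the gene's strand. Capitals mark matches on either strand to CCAAT (the CCAAT box bound by NF-Y; reverse complement ATTGG) and to TTTGAA (the cell cycle genes homology region, CHR; reverse complement TTCAAA), which do not overlap each other here.
TUBB, chr6:30720102-30720401, plus strand: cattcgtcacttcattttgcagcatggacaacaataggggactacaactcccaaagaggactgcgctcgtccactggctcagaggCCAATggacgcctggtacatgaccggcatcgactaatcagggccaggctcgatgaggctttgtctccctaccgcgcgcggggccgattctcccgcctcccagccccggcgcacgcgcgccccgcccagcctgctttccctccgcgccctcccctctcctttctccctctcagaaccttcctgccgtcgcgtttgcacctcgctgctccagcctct
TUBB4B, chr9:137241037-137241336, plus strand: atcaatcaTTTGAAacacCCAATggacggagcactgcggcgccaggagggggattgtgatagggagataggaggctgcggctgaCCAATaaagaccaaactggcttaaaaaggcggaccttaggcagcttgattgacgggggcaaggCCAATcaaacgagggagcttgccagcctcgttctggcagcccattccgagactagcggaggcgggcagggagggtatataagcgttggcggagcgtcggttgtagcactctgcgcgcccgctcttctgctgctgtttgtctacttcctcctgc
TUBB6, chr18:12307419-12307718, plus strand: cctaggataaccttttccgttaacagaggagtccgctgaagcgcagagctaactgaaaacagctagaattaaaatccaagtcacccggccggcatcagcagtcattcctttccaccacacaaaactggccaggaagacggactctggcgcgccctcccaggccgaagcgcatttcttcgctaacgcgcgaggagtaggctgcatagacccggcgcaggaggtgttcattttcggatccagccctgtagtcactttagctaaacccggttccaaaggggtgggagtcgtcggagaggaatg
The TUBB4B window holds 3 CCAAT matches and 1 TTTGAA match, that of TUBB 1 CCAAT match, and that of TUBB6 neither motif. All 10 members had a promoter in the table: 5 held CCAAT and 2 held TTTGAA (TUBA1C and TUBB4B). Among 12920 promoters of genes in the count table, 36.2% held CCAAT and 11% held TTTGAA. TUBA1B, TUBB3, TUBB2A and TUBA4A, with log2 fold changes of 0.56, 0.57, 0.54 and 0.47, held neither. Only 1 annotated start per gene was searched, and which start these cells use was not measured.

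Of 12 other tubulin genes listed, 10 were in the table and 6 passed the filter, of which 1 rose, 3 fell and 2 were not called (38.7% of all genes tested were higher and 38.6% lower), and their median log2 fold change was -0.11. TUBE1, the epsilon tubulin of centrioles, had 20.1, 18.2, 22.0 and 19.9 CPM in shHNRNPC cells, against 53.1, 53.4, 52.3 and 48.9 CPM in control cells. It fell to 38.6% of the control level (log2 fold change -1.37, SE 0.0494, edgeR adjusted p = 4.66e-35), where 5.25% of all genes tested were called lower with a log2 fold change of -1 or less. TUBD1, the delta tubulin, which also acts in centrioles, moved the other way, at 11.01 ± 0.358 CPM in shHNRNPC cells and 7.37 ± 0.960 CPM in control cells (SD, n = 4; log2 fold change 0.58, SE 0.0923, edgeR adjusted p = 8.71e-08).

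TUBG2, the second gamma tubulin and the near copy of TUBG1 (protein 97.8% identical) on the same chromosome, had 22.4, 24.2, 23.9 and 25.4 CPM in shHNRNPC cells, against 35.5, 32.5, 35.3 and 32.3 CPM in control cells. It fell while TUBG1 rose (log2 fold change -0.50, SE 0.0513, edgeR adjusted p = 1.78e-13), and the log2 ratio of TUBG2 to TUBG1 was -2.82 ± 0.0442 in shHNRNPC cells and -2.03 ± 0.0418 in control cells (exact two-sided permutation p = 0.0286, adjusted over the 8 ratios p = 0.0762). TUBAL3, a divergent alpha tubulin, was scarce, with 5 to 15 counts in shHNRNPC libraries and 37 to 60 in control libraries (log2 fold change -2.29, SE 0.311, edgeR adjusted p = 1.28e-09). TUBA8 (2.99 ± 0.499 CPM in shHNRNPC cells and 2.37 ± 0.483 CPM in control cells) and TUBB2B (0.609 ± 0.0633 and 0.503 ± 0.0421 CPM) were not called (edgeR adjusted p = 0.0801 and 0.442). Of the 150-base windows of TUBA8, 64.3% also occur in PEX26. TUBA8 passed the threshold without shHNRNPC replicate 3 (log2 fold change 0.43, edgeR adjusted p = 0.0281; range over all alternatives 0.0281 to 0.309). TUBA3D, TUBB1, TUBB4A and TUBB8 had at most 7 counts in any library.

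Genes that act on tubulin were described in lists chosen with earlier results of these data known, and each count is to be read against the 38.7% higher and 38.6% lower of all genes tested. Of 13 folding cofactors and prefoldin subunits, 6 rose and 4 fell (median log2 fold change 0.07). TBCB and TBCD, which bind alpha and beta tubulin during dimer assembly, rose to 73.5 ± 2.69 and 65.1 ± 1.66 CPM in shHNRNPC cells, against 53.8 ± 0.493 and 47.8 ± 0.676 CPM in control cells (log2 fold changes 0.45 and 0.44). TBCE and TBCC, which also act in dimer assembly, fell to 27.4 ± 0.703 and 11.4 ± 0.525 CPM, against 41.6 ± 1.77 and 14.8 ± 0.649 CPM in control cells (log2 fold changes -0.61 and -0.37). Another gene overlaps 21.3% of the exon bases of TBCE.

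The autoregulation list of TTC5, SCAPER and the CCR4-NOT subunits was divided, with 5 of 12 higher and 5 lower (median log2 fold change -0.06). CNOT11 rose to 80.9 ± 3.8 CPM in shHNRNPC cells, against 51.0 ± 1.91 CPM in control cells (log2 fold change 0.67). CNOT6, a catalytic deadenylase subunit, rose to 226 ± 0.686 CPM, against 150 ± 4.20 CPM (log2 fold change 0.59), and CNOT9 rose too (log2 fold change 0.31), while CNOT10 fell (log2 fold change -0.32). The other catalytic subunits listed, CNOT6L, CNOT7 and CNOT8, named after their values were seen, fell (log2 fold changes -0.17, -0.28 and -0.13). TTC5 and SCAPER were named after their values were seen. TTC5 had 24.9, 24.7, 26.2 and 24.4 CPM in shHNRNPC cells, against 28.97, 31.2, 29.1 and 29.4 CPM in control cells, and fell by 0.24 on the log2 scale (SE 0.0506, edgeR adjusted p = 1.96e-05) with no overlap between groups. SCAPER was at 22.4 ± 0.810 CPM in shHNRNPC cells and 24.1 ± 0.895 CPM in control cells and was not called (edgeR adjusted p = 0.0682), though it passed with library totals as the only scaling (0.0287; log2 fold change -0.13).

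Of 20 tested genes for enzymes that modify tubulin and for their partner proteins, 5 rose and 11 fell (median log2 fold change -0.19). TTLL1, a polyglutamylase, was at 0.939 ± 0.131 CPM in shHNRNPC cells and 3.16 ± 0.404 CPM in control cells (log2 fold change -1.74, SE 0.208). TPGS1, a subunit of the same polyglutamylase complex, fell as well (log2 fold change -0.59), as did TTLL11, another polyglutamylase (-0.61), and VASH1, a carboxypeptidase that removes the C-terminal tyrosine of alpha tubulin (-0.71; another gene overlaps 24.2% of its exon bases). Polyglutamylation genes of the same list also rose: TPGS2, another subunit of the TTLL1 complex, was at 137 ± 2.80 CPM in shHNRNPC cells and 93.9 ± 0.889 CPM in control cells (log2 fold change 0.54), and the polyglutamylases TTLL4 and TTLL5 rose as well (0.40 and 0.32), all 3 named after their values were seen.

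Among microtubule nucleation genes 10 of 21 rose and 6 fell (median log2 fold change 0.07). MZT1, a small subunit of the gamma tubulin ring complex, had the largest rise in the lists, at 33.9 ± 1.48 CPM in shHNRNPC cells and 8.45 ± 0.879 CPM in control cells (SD, n = 4; log2 fold change 2.01, SE 0.0642, edgeR adjusted p = 7.68e-38). The ring complex subunits themselves were split: TUBGCP4 rose to 111 ± 1.94 CPM, against 72.1 ± 1.72 CPM in control cells (log2 fold change 0.62, with 34.3% of exon bases overlapping other genes), and TUBGCP2 fell to 82.3 ± 1.51 CPM, against 111 ± 3.21 CPM in control cells (log2 fold change -0.43). NEDD1, which brings the ring complex to the centrosome and spindle, rose (log2 fold change 0.42).

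Of 22 tested proteins that bind microtubules or their ends, 13 rose and 8 fell (median log2 fold change 0.13). The spindle proteins TACC3 and TPX2 rose to 129 ± 3.90 and 540 ± 6.0 CPM in shHNRNPC cells, against 61.9 ± 1.95 and 308 ± 4.21 CPM in control cells (log2 fold changes 1.06 and 0.81). CAMSAP2, which protects minus ends of non-centrosomal microtubules, fell to 69.3 ± 4.02 CPM, against 165 ± 4.68 CPM in control cells (log2 fold change -1.26), and the low MAP1A fell as well (log2 fold change -1.17). Of 12 tested destabilising and severing proteins 8 rose and 2 fell (median log2 fold change 0.23), with rises of the stathmin STMN3 (1.04), the depolymerising kinesins KIF2C (0.83) and KIF2A (0.56) and the katanin-like KATNAL1 (0.78), all as log2 fold changes.

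**Figure D5:**
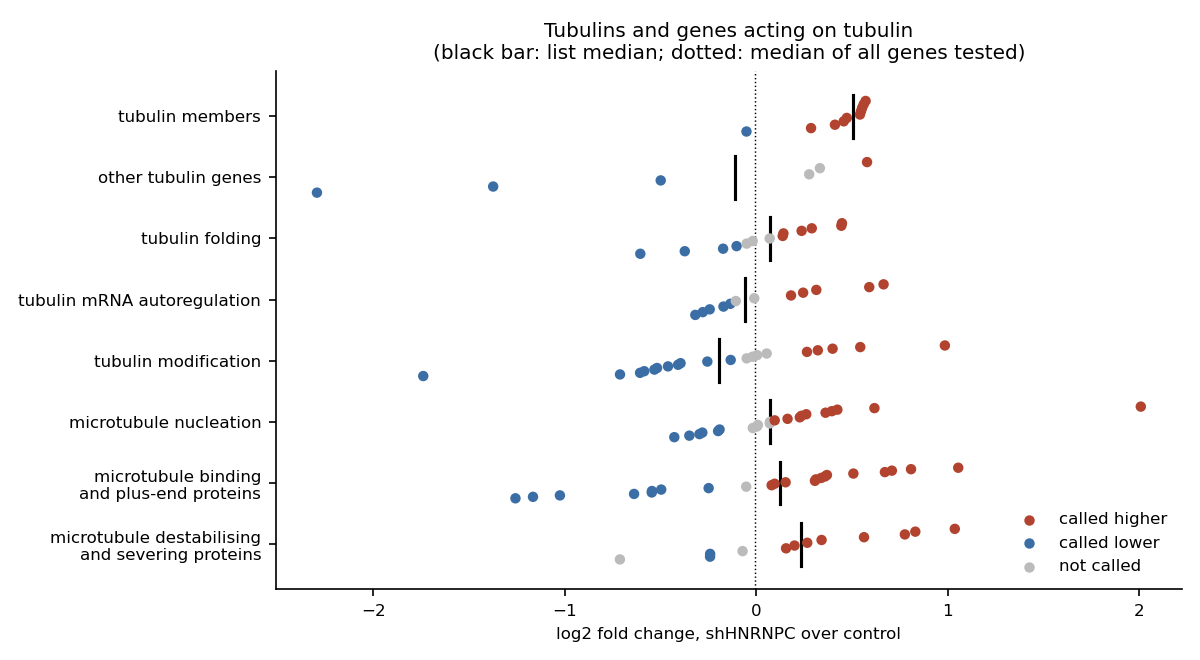
Log2 fold change of shHNRNPC over control for each tested gene of the tubulin lists and of the lists acting on tubulin, coloured by call, with a black bar at each list's median and a dotted line at the median of all genes tested. Of the 10 tubulin isotypes 8 lie between 0.41 and 0.57, with TUBG1 at 0.29 and TUBB6 at -0.05, and MZT1 stands apart at 2.01.

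Over the 8 libraries, the log2 CPM of 10257 genes with a mean of at least 5 CPM was correlated with that of TUBB and of TUBB3. TUBB was the most abundant member per length, and TUBB3 had the largest log2 fold change, though close to that of TUBA1B. FKBP4, ELAVL2 and ESYT1 were most like TUBB (Pearson r = 0.9997, 0.9996 and 0.9996 over 8 libraries), and ATP6V1A, MZT1 and ARNTL2 were most like TUBB3 (r = 0.999 for each). These are descriptions: the points share the 2 groups, and 825 genes reached an r of at least 0.99 with TUBB. The log2 fold changes of these 6 genes ranged from 0.61 for ATP6V1A to 2.02 for ELAVL2.

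Markers of fibroblasts, leukocytes and endothelium were low. The 8 of 10 such markers in the table summed to 9.41 to 10.6 CPM in shHNRNPC libraries and 5.53 to 6.15 CPM in control libraries, 6 of them stayed below 1 CPM in every library, and most of the sum was COL1A1 (7.86 ± 0.222 CPM in shHNRNPC cells and 3.25 ± 0.0917 CPM in control cells). VWF was at 0.765 ± 0.121 and 1.70 ± 0.0761 CPM and CDH5 at 0.481 ± 0.0808 and 0.419 ± 0.139 CPM in shHNRNPC and control cells. PTPRC and CD3E, markers of leukocytes, were not among the genes analysed here. The part of these markers in the tubulin changes was not tested.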

How the data were processed

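Poly(A) RNA of 4 shHNRNPC and 4 control samples was measured, grouped by the titles and genotype in the labels. Per the series design text, low-quality reads were removed with fastp; the submitters' processing notes name hg38. Sources used here do not give an aligner, a counter, an annotation or a strandedness. Each deposited value is a whole number, a raw count of reads on a gene, and totals per library ran from 28323403 to 34913500. Tubulin members and gene lists were chosen with earlier results of these data known.

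Genes were kept with edgeR's filterByExpr (minimum count 10, minimum total 15), scaled with TMM factors and tested by quasi-likelihood in edgeR on the group term over all 12001 genes, with Benjamini-Hochberg adjustment. Each SE was obtained as |log2 fold change| over the root of F. The fit was tested on simulated data, with 4 simulated shHNRNPC against 4 simulated control libraries of 12001 genes. Recovery was 38 of 50 at 1.25-fold, 43 of 50 at 1.5-fold, 49 of 50 at 2-fold and 48 of 50 at 4-fold. Of 11801 unchanged genes, 18 were called. In the measured libraries 77.3% of genes tested were called. The scaling and the fit were not tested on data in which most genes change. Replicates differed by more than sampling noise (chi-square per degree of freedom 2.66 to 3.70 within groups), and each was counted once. Such an excess can also arise between libraries of the same culture, so it does not show that the samples were separate cultures. Same-numbered libraries did not deviate together (residual correlations -0.0552 to 0.0170), so the numbers were not taken as pairs.

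Named besides the members were HNRNPC, every other tubulin gene that passed the filter, up to 4 called genes with the largest change and at least 1 CPM from each list, the 3 most abundant genes of each marker list, and the 3 genes most correlated with TUBB and with TUBB3 among those with at least 5 CPM. Lengths and overlaps came from GENCODE release 29 (1 representative transcript per gene) and positions from RefSeq GRCh38.p14; 1 listed gene, MATCAP1, appears under an older symbol. Fits ran in edgeR 4.0.16 and, as an alternative, DESeq2 1.42.0 under R 4.3.3; scipy 1.17.1 gave the permutation tests. Alternatives were DESeq2, other size factors, other filters, a replicate block, summed copies and libraries left out.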

Additional observations from a re-analysis of the deposited data

Results flagged for a closer look

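Among 128 group values examined, 4 had 1 library far from the other 3 of its group, where chance flags about 1 in 20. TUBA8 was at 1.65 CPM in control replicate 4, against 2.53 to 2.70 CPM in the other control libraries. CNOT9 was at 105 CPM in control replicate 4, against 99 to 100 CPM in the other control libraries, and CNOT8 was at 63.5 CPM in the same library, against 61.7 to 61.9 CPM. TTLL4 was at 90 CPM in shHNRNPC replicate 3, against 91.8 to 92.2 CPM in the other shHNRNPC libraries.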

How the results depend on the processing

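The 9 rises among the tubulin members were called in every alternative that gave a value: DESeq2, RLE size factors, library totals only, no filter, the 1 CPM filter, the replicate block, summed copies, and libraries left out singly or as shHNRNPC replicates 1 and 4 or 2 and 3. Summed copies gave a value only for members that were not themselves summed. The fall of TUBB6 did not hold: the number of members called lower was 0 with DESeq2, RLE size factors, no filter, the replicate block, without shHNRNPC replicates 1 and 4 and without shHNRNPC replicates 2 and 3, and ranged from 0 to 1 when single libraries were left out. The log2 fold change of TUBB6 ranged from -0.07 to -0.03 over all alternatives, always negative. Same-numbered libraries did not deviate together, so replicate numbers were not read as pairing; with the replicate block TUBB6 had an adjusted p of 0.0604, 9 members were higher and 0 lower, and 4605 genes were higher and 4614 lower of 12001, against 4640 and 4635 without the block. Other tubulin genes called higher ranged from 1 to 2 when single libraries were left out (TUBA8 passed without shHNRNPC replicate 3). SYP lost its call without shHNRNPC replicates 1 and 4 (adjusted p = 0.122), and CDH5, never called, had log2 fold changes from -0.0188 (without control replicate 3) to 0.3285 (without control replicate 4) when single libraries were left out. Without division by length the share differences, shHNRNPC minus control, were 2.06 points for TUBA1B, -1.84 for TUBA1C and -1.56 for TUBB6, and -1.18 for TUBB6 with the length of all annotated exon bases, an alternative chosen after seeing the data. Causes were not tested. The low counts of TUBAL3, TUBB2B and TUBA8 limit the precision of their fold changes.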
